A study of Arabidopsis thaliana with 74 samples.

Results

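The RPP5 and SNC1 cluster is a 90-kb stretch of chromosome 4, from 9.48 to 9.57 Mb in TAIR10, that holds a tandem array of disease resistance genes. It was taken as every 200-bp region of the CHH count table between those bounds, and counts were summed over the 450 regions that do not overlap, of 594835 such regions in the genome. The same stretch in steps of 50 bp held 1797 regions. In the annotation, 31 genes overlapped the stretch, of which 20 are protein coding, and the genes RPP4, SNC1, RPP5 and RLM3 lay where the name of the cluster places them.

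Small RNA was sequenced from pooled aerial rosettes of Arabidopsis thaliana in 74 libraries, each harvested 27 days after sowing. There were 36 epiRILs, which are Col-0 lines carrying a mosaic of DNA methylation inherited from a ddm1-2 mutant ancestor while DDM1 itself is wild type. Each epiRIL had fathered 1 epiHybrid family, which gave 36 epiHybrid libraries with the same family numbers, and the mothers were msCol plants, male sterile Col-0 carrying an ms1 allele from the Ler accession, of which 2 libraries were present (12 and 16). The assignment of families to msCol mothers was not given, so mid-parent values used the mean of both. Each epiRIL and each epiHybrid family gave 1 library, so spread within these groups joins differences among families with those among libraries. Fewer cells producing a small RNA also cannot be told apart from less of it per cell.

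The proteins of this cluster mostly belong to the TIR-NBS-LRR class, intracellular receptors that recognise pathogen effectors and trigger defence. RPP4 and RPP5 confer recognition of the downy mildew oomycete, SNC1 is known for a gain-of-function allele that switches on immunity and dwarfs the plant, and RLM3 acts in resistance to necrotrophic fungi. Small RNAs from such arrays can act on transcripts of several members, and small RNAs of the RNA-directed DNA methylation pathway guide methylation of repeated sequence. DDM1 is a chromatin remodeller that keeps methylation on transposons, and bal, a variant recovered from a ddm1 line, has raised SNC1 expression. Among the exceptions to near-identical DNA sequence in the epiRILs, the authors name possible duplications, detected in ddm1 siblings. Copy number in the cluster was not tested here.

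The windows that carry the results below were read from the RefSeq reference (TAIR10.1, plus strand, 5′ to 3′). Capitals mark bases that lie in a 24-base word found more than once in the genome, so that a small RNA of that sequence has more than 1 possible origin. The first pair, from RPP5 and AT4G16920, is shown because all of its bases are in capitals, and the 200 bases of the AT4G16920 window recur in RPP5 at an offset of 19991 bp with 0 differing positions.
RPP5 window, chr4:9541401-9541600: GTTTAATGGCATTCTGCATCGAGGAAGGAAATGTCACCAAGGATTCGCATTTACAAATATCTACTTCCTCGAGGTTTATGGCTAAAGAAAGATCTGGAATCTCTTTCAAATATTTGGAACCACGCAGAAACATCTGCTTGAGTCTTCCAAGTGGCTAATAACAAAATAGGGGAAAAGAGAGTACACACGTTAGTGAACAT
AT4G16920 window, chr4:9521401-9521600: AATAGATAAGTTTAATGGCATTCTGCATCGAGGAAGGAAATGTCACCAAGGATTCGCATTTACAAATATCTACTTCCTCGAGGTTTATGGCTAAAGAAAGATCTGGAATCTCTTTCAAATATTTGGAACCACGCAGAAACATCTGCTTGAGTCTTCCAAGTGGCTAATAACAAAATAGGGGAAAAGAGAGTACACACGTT
The next pair, from RPP4 and SNC1, is among the most abundant of the cluster and shares 75 of 177 words of 24 bases.
RPP4 window, chr4:9489601-9489800: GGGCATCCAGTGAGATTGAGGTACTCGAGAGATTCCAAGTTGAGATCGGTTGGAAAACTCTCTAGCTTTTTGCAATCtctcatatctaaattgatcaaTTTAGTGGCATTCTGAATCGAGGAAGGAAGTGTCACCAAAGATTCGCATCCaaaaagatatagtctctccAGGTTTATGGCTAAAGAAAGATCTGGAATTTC
SNC1 window, chr4:9503001-9503200: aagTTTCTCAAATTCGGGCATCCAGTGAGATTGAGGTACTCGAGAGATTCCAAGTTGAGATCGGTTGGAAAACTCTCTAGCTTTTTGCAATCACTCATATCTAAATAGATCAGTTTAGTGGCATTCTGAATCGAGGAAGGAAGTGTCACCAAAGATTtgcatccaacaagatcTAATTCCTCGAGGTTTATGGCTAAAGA
The last 3 windows are shown because the first, across an exon edge of RPP4, varied widely among libraries, and because the second, across an exon edge of SNC1, and the third, in the pseudogene AT4G16910, passed a test.
RPP4 edge window, chr4:9489201-9489400: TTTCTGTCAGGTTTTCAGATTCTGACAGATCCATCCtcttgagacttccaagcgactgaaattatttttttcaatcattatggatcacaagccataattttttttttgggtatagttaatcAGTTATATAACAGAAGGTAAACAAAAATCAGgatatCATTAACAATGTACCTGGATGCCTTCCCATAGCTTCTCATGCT
SNC1 edge window, chr4:9502601-9502800: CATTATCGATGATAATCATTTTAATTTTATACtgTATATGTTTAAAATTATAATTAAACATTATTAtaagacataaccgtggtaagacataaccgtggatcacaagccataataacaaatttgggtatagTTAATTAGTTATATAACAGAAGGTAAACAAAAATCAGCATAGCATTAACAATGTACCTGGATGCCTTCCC
AT4G16910 window, chr4:9511401-9511600: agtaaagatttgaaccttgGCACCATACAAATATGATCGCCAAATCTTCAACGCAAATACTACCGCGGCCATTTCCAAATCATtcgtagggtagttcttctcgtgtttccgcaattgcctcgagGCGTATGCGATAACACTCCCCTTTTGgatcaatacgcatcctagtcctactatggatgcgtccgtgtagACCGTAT

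Across the stretch, 71.2% of the 24-base words occurred once in the genome, 26.6% recurred within the cluster and 2.98% also occurred outside it. The longest copy checked joined AT4G16920 and RPP5, where 2084 bp (chr4:9520042-9522125 and chr4:9540033-9542116) differed at 22 positions, an identity of 98.9%. In the pair of windows printed first, the counts of the AT4G16920 window over those of the RPP5 window lay between 0.860 and 1.16 in all 74 libraries, with a median of 0.988. The small RNAs of these windows therefore cannot be assigned to either gene, and 280 pairs of windows, drawn from 196 windows, shared at least 20 words of 24 bases.

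Counting the same windows again for another context showed where this mattered. In the 66 windows that were also listed for CG and had only unique words, counts differed between the CG and CHH tables by 0.0849% in sum. In the 154 shared windows with some repeated words the difference was 5.11%, and for CHG the corresponding values were 0.0939% and 6.56%. Counts over repeated sequence thus moved between counting runs of the same reads, while counts over unique sequence hardly did. The 333 windows with at least 50% unique words held 64.6% of the cluster counts.

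The libraries held between 20995764 and 27084303 counts, of which 3941 to 17703, or 0.0164% to 0.0692%, fell in the cluster. Levels below are counts scaled by TMM factors to the mean effective library size of 25704230 counts and are called normalised counts. TMM factors lay between 0.818 and 1.17 in the 72 epiHybrid and epiRIL libraries, while msCol 12 had 1.09 and msCol 16 had 0.733, the lowest of all. As a check of the labels, small RNAs in 169 windows within 500 kb of MS1, the gene whose Ler segment marks the mothers, in which msCol had under 10% of the epiRIL median were summed and put on a scale from msCol (0%) to the epiRIL median (100%). They came to 35.9% to 78.1% in 34 epiHybrids and 87.7% to 130% in their epiRILs, but families 12 and 568 had the reverse order (107% and 123% in the library labelled epiHybrid, 68.0% and 60.8% in the library labelled epiRIL). The tests are given without both families where that changed a count of calls by over 1.5 times or the cluster sum was concerned, and single values of family 12 are named as such. No marker of rosette tissue could be checked in small RNA windows.

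Of the 450 windows, 191 averaged 2 or more counts in a library and entered the tests, and these held 98.9% of the cluster counts. None of the 450 was at 0 in every library. The share of windows past this minimum was 42.4% in the cluster and 29.4% in the genome. Counts were concentrated, with 42.2% of them in the 10 most abundant windows. Windows with at least 100 coding bases numbered 197 and held 43.6% of the counts, 36 pseudogene windows held 17.7%, 81 windows of non-coding exon held 24.5%, 100 windows that were mostly intron held 10.06%, and 36 intergenic windows held 4.11%. All but 1 of the 36 pseudogene windows passed the minimum, against 102 of the 197 coding windows. Between the end of AT4G16920 and the start of RPP5 (chr4:9525801-9538200), 62 windows held only 0.234% of the counts, and 1 of them passed. This nearly silent stretch with AT4G16940 is called the silent middle below. It was not the only such stretch, as AT4G16957, AT4G16960 and AT4G16970 to the right of RPP5 held 0.172%, 0.104% and 0.0504% of the counts.

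**Figure D1:**
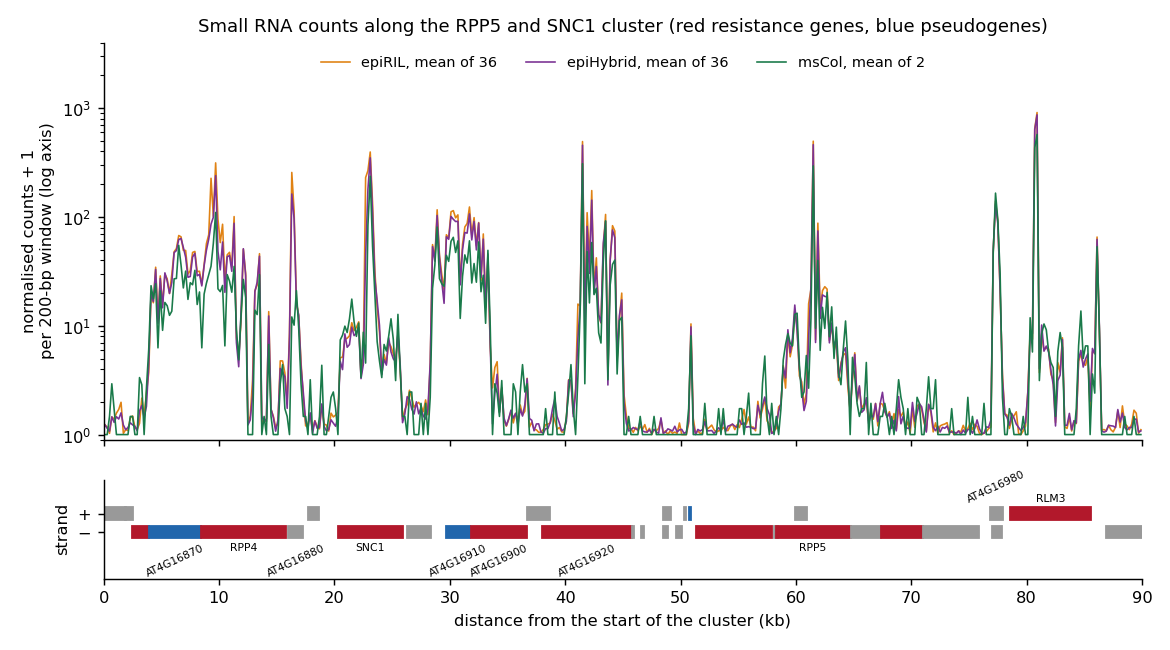
Mean normalised counts plus 1 per 200-bp window (log axis) along the 90 kb, for 36 epiRILs, 36 epiHybrids and 2 msCol libraries, above a map of the genes by strand (red resistance genes, blue pseudogenes, grey other genes). The counts stand in separate peaks over RPP4, SNC1, AT4G16910, AT4G16920, RPP5 and RLM3, and the 62 windows before RPP5 hold 0.234% of all counts.

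Summed over the cluster, small RNAs were least abundant in the msCol mothers, most abundant in the epiRIL fathers, and between them in the epiHybrids. The sum was 5254 normalised counts in msCol 12 and 5765 in msCol 16. In the 36 epiRILs it ran from 6619 over a median of 9684 to 15210, with a mean of 9826 ± 2245 (SD). In the 36 epiHybrids it ran from 6037 over a median of 8373 to 16072, with a mean of 8511 ± 1952 (SD). The ranges of epiRILs and epiHybrids overlapped almost fully, and both lay above the msCol values.

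Within families the epiHybrid was lower than its father in 30 of 36, by −0.20 ± 0.04 (SE) on the log2 scale, a ratio of 0.869. A two-sided sign-flip permutation test gave p = 1e-05, the smallest that 100000 permutations can give, or 4e-05 adjusted over the 4 tests of the sum. Without families 12 and 568 the difference was −0.22 with permutation p = 1e-05. The 90 kb on either side showed no such difference, with a log2 ratio of 0.01 ± 0.02 (SE, permutation p = 0.812), and the cluster fell below its flanks in 33 of 36 families (log2 −0.21 ± 0.04 SE, permutation p = 2e-05).

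Against the mid-parent value, the mean of the father and of msCol on the linear scale, the epiHybrids were 11.0% ± 2.87 (SE) higher, in 30 of 36 families (sign-flip permutation p = 0.00018, adjusted 0.00036). All 36 mid-parent values share the mean of the same 2 msCol libraries, an error that this SE and p do not include. The excess was 9.08% without families 12 and 568, 9.18% without msCol 12, 13.0% without msCol 16 and 19.3% when libraries were scaled by size alone. Against msCol, the epiRILs were 1.74-fold higher, with all 36 above both msCol libraries and an exact permutation p of 0.00142, the smallest that 703 choices of 2 libraries allow. The epiHybrids were 1.51-fold higher, also with all 36 above, and the exact permutation p was 0.0142. Without families 12 and 568 the log2 differences from msCol were 0.79 in epiRILs and 0.57 in epiHybrids. These comparisons share their libraries and are not independent of each other. With msCol reduced to library 12 or to library 16 alone, the exact permutation p of the epiHybrids was 0.0811 each time, in a design that cannot go below 0.027. Taken as a plain share of library counts, 35 of the 36 epiHybrids lay above both msCol libraries.

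**Figure D2:**
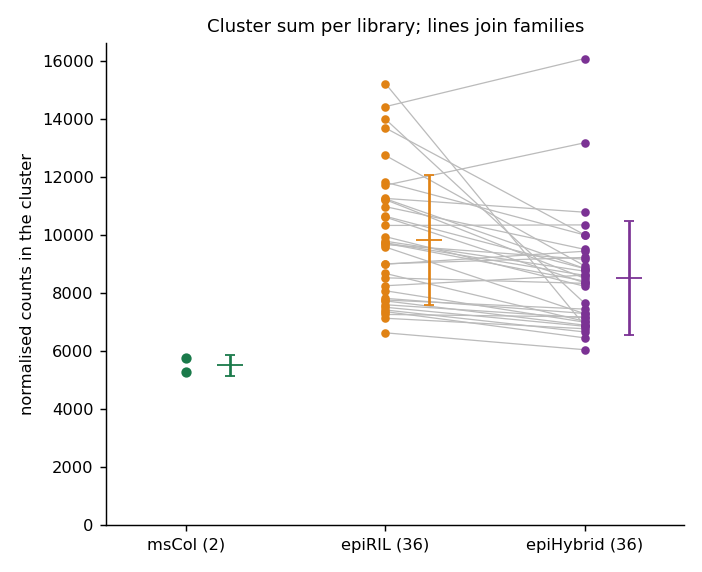
Normalised counts summed over the cluster in each library, with grey lines joining each epiRIL to its epiHybrid, and the mean with its SD beside each group of points. The 2 msCol points at 5254 and 5765 lie under all others, and 30 of the 36 lines fall from the epiRIL to the epiHybrid.

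The highest sums belonged to a few families and did not always pass to the offspring. In family 12, whose labels went against MS1, the library labelled epiHybrid had the highest sum of all (16072) and the library labelled epiRIL had 14414. Among the remaining families the highest epiHybrid was that of family 503 at 13170. EpiRIL 79 was the highest library labelled epiRIL at 15210, yet its epiHybrid had 6867, and epiRIL 340 at 13984 had an epiHybrid at 7635. Over the 36 families the sums of father and epiHybrid nevertheless went together, with Pearson's r = 0.646 and Spearman's rho = 0.702 on log2 values (permutation p = 1e-05 each, 3.83e-05 and 4.6e-05 adjusted over the 23 items correlated). Without families 79 and 12, the fathers farthest from the median, r was 0.734, and without families 12 and 568 it was 0.607.

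Per window, few members passed the test. Between epiHybrids and epiRILs, edgeR's quasi-likelihood test with a family block and Benjamini-Hochberg adjustment over the genome called 5 of 191 windows, all lower in epiHybrids. Over all windows tested 8.02% were called, 4.46% higher and 3.56% lower, so the share of called windows in the cluster (2.62%) lay under the background. The median log2 difference was −0.02 over the 191 windows and 0.05 over all. Without families 12 and 568, 10 of 190 windows were called, where 9.13% of all windows were called.

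Between epiRILs and msCol, 3 of 191 windows were called, all higher in epiRILs, where 1.92% of all windows were called (1.06% higher and 0.856% lower). The median log2 difference was 0.60 in the cluster and 0.03 over all windows, so the cluster lay higher as a whole while few windows passed singly. These calls rested on both msCol libraries, since 0 were left without msCol 12 and 1 without msCol 16. For windows and genes the mid-parent value was the mean of the epiRIL and msCol group levels on the log scale, without pairing by family. Against it 0 windows were called (1.08% of all, 0.749% higher and 0.33% lower), with 17 at an unadjusted p under 0.05. Between epiHybrids and msCol 0 were called (1.19% of all, 0.739% higher and 0.449% lower), with 29 at an unadjusted p under 0.05. The share of all windows at an unadjusted p under 0.05 was not counted, so 17 and 29 have no background here. With limma voom 0 windows were called in both comparisons as well. The median log2 differences in the cluster were 0.21 and 0.55, against 0.03 and 0.04 over all windows. With 2 msCol libraries, a low count of calls does not show that levels were alike.

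Counts were also summed per gene, and 21 of the 31 genes had a mean of at least 2. RPP4 was lower in epiHybrids than in epiRILs and was the only gene called there, where 3.99% of all genes were called, 2.13% higher and 1.85% lower. RPP4 and AT4G16910 were called as higher in epiRILs than in msCol (2 of 21, against 3.71% of all genes, 0.674% higher and 3.03% lower). Neither of these calls held without msCol 12 or without msCol 16. Against the mid-parent value 0 genes were called by edgeR, limma voom or DESeq2 (1.53% of all genes by edgeR, 0.308% higher and 1.22% lower), with 2 of 21 at an unadjusted p under 0.05. Between epiHybrids and msCol 0 genes were called by edgeR or limma voom and 1 by DESeq2 (2.71% of all genes by edgeR, 0.381% higher and 2.33% lower), with 5 of 21 at an unadjusted p under 0.05. The share of all genes at an unadjusted p under 0.05 was not counted, so 2 and 5 of 21 have no background here. The median log2 difference of the 21 genes was −0.06 between epiHybrids and epiRILs, 0.56 between epiRILs and msCol and 0.50 between epiHybrids and msCol, against 0.02, −0.21 and −0.22 over all genes.

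Resistance genes elsewhere in the genome were taken from a list of 32 named genes, such as RPS4, RPM1 and RPP1, and all 32 were tested. In epiRILs 0 were higher and 2 lower than in msCol, where 0.674% of all genes were higher and 3.03% lower. Their median log2 difference was −0.23, and that of all genes was −0.21. Between epiHybrids and epiRILs 4 of 32 were higher and 2 lower (median 0.02), where 2.13% of all genes were higher and 1.85% lower. Whether the 2 lists differ was not tested.

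Among the receptor genes, RPP4 (AT4G16860, chr4:9488466-9495837, minus strand) held 14.6% of the cluster counts. Its level was 553 normalised counts in msCol 12 and 613 in msCol 16, between 707 and 4189 in epiRILs with a median of 1309, and between 686 and 2723 in epiHybrids with a median of 1152. All 72 offspring and father libraries lay above both msCol libraries, while epiRILs and epiHybrids overlapped. The epiHybrid was lower than its father in 30 of 36 families, by −0.31 ± 0.07 (SE) on the log2 scale (edgeR adjusted p = 0.00507), and without the family block the adjusted p was 0.0763. EpiRILs were higher than msCol by 1.39 ± 0.43 (edgeR adjusted p = 0.0474, and up to 0.385 over 10 alternatives). EpiRIL 79 stood highest at 4189, with its epiHybrid at 1130.

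The printed RPP4 window (chr4:9489601-9489800) was called in no comparison (edgeR adjusted p between 0.0876 and 0.636), with medians of 278 in epiRILs and 249 in epiHybrids and with 88.0 and 130 in msCol. The RPP4 edge window at chr4:9489201-9489400 was far more variable. It ran from 2.20 to 1228 in epiRILs (median 65.7) and from 6.36 to 1002 in epiHybrids (median 54.9), with 29.04 and 39.5 in msCol. It exceeded 100 in 13 epiRILs and 4 epiHybrids and in neither msCol library.

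SNC1 (AT4G16890, chr4:9500271-9505972, minus strand) held 11.0% of the counts. Its level was 585 in msCol 12 and 518 in msCol 16, between 357 and 4470 in epiRILs (median 1053) and between 400 and 2765 in epiHybrids (median 777), so that all 3 groups overlapped. The epiHybrid was lower in 26 of 36 families, by −0.36 ± 0.11 (SE) on the log2 scale, which missed the threshold (edgeR adjusted p = 0.0505). Against msCol the epiRILs differed by 1.11 ± 0.53 (adjusted p = 0.258). The highest fathers were epiRIL 340 at 4470 and epiRIL 128 at 3411, and their epiHybrids had 657 and 1273. In family 503 the order was the other way, with 1572 in the epiRIL and 2765 in the epiHybrid.

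These extremes came in part from the SNC1 edge window at chr4:9502601-9502800, which was lower in epiHybrids by −2.52 ± 0.49 (SE) on the log2 scale (edgeR adjusted p = 0.000218, called under all 7 alternatives). It held 5.62 and 1.46 normalised counts in msCol, a median of 6.999 in epiRILs and of 4.32 in epiHybrids. It passed 100 in 10 epiRILs, with 2529 in epiRIL 340, and in 1 epiHybrid, that of family 503 with 1297. Most libraries of every group were thus near 0 and a minority of fathers was very high. The adjoining window, chr4:9502801-9503000, had the same highest libraries, with 1379 in epiRIL 340 and 873 in the epiHybrid of family 503. Its medians were 160 in epiRILs and 158 in epiHybrids, with 95.5 and 70.2 in msCol. No comparison called it (edgeR adjusted p between 0.176 and 0.873). The next SNC1 window, chr4:9503001-9503200, printed above, varied less, from 73.5 to 978 in epiRILs and from 138 to 688 in epiHybrids, with 283 and 189 in msCol. It was called in no comparison (edgeR adjusted p between 0.474 and 0.842).

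AT4G16900, a TIR-NBS-LRR gene beside SNC1, held 5.04% of the counts. Its level was 251 and 294 in msCol, between 142 and 737 in epiRILs (median 476) and between 233 and 724 in epiHybrids (median 420). It was called in no comparison, and its epiHybrids followed their fathers most closely of the correlated items without a split in levels (r = 0.864, rho = 0.891, permutation p = 1e-05 each). A window of non-coding exon in it, chr4:9512001-9512200, was higher in epiRILs than in msCol by 1.42 ± 0.41 (edgeR adjusted p = 0.0462), a call lost under 6 of 8 alternatives.

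AT4G16920, another TIR-NBS-LRR gene, had 804 and 715 normalised counts in msCol, 760 to 3262 in epiRILs (median 1195) and 732 to 1663 in epiHybrids (median 1138). RPP5 (AT4G16950, chr4:9538233-9544755, minus strand) had 536 and 506 in msCol, 374 to 2115 in epiRILs (median 646) and 444 to 1145 in epiHybrids (median 683). Neither gene was called in any comparison, with an edgeR adjusted p of 0.439 and 0.941 between epiHybrids and epiRILs. A further abundant window of AT4G16920, chr4:9522201-9522400, had medians of 124 in epiRILs and 133 in epiHybrids, with 59.0 and 55.6 in msCol. That window was called in no comparison (edgeR adjusted p between 0.181 and 0.619). EpiRILs 79, 125, 469 and 467 had the 4 highest levels at both genes, and across the 36 epiRILs the levels of the genes gave rho = 0.886. That value describes genes that share repeated sequence and the same libraries, as does rho = 0.738 between RPP4 and SNC1.

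RLM3 (AT4G16990, chr4:9558571-9565569, plus strand) encodes a TIR-NBS protein and was the most abundant gene, with 17.7% of the counts. It had 844 in msCol 12 and 1382 in msCol 16, 543 to 2170 in epiRILs (median 1711) and 1126 to 2007 in epiHybrids (median 1589). The groups overlapped, no comparison was called (edgeR adjusted p between 0.111 and 0.961), and its coefficient of variation was 18.5% among epiRILs and 12.7% among epiHybrids. Almost all of it came from a peak of 2 windows, chr4:9560601-9561000, which alone held 16.7% of the cluster counts and in which the step from 9560701 to 9560900 had the highest mean, 1031. The second of these windows had only unique words and had 419 and 727 counts in msCol, a median of 929 in epiRILs and of 852 in epiHybrids. A minor coding window of RLM3, chr4:9562601-9562800, was lower in epiHybrids by −0.70 ± 0.21 (edgeR adjusted p = 0.0291) at medians of 1.93 and 3.38 counts.

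The remaining receptor genes carried few small RNAs. Per kb of gene, AT4G16940 had 1.37 normalised counts, AT4G16960 had 2.62 and AT4G16857 had 4.29, against 229 in RLM3, 178 in RPP4, 172 in SNC1, 159 in AT4G16920, 115 in RPP5 and 95.3 in AT4G16900. AT4G16930, a TIR domain gene in the silent middle, did not reach the minimum. None of these changed in a test, and the levels of father and epiHybrid did not go together at AT4G16940 (r = 0.0854, permutation p = 0.621) or AT4G16960 (r = 0.0563, permutation p = 0.744).

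Of the 3 pseudogenes between the receptor genes that passed the minimum, AT4G16910 had the highest level per kb of all genes, 391, AT4G16870 had 167, and AT4G16935, in the silent middle, had 23.4. The total of AT4G16910 was 550 and 426 in msCol, 476 to 1409 in epiRILs (median 933) and 513 to 1212 in epiHybrids (median 803). It was higher in epiRILs than in msCol by 0.92 ± 0.26 (edgeR adjusted p = 0.0276, and up to 0.516 over 10 alternatives), with 34 of 36 epiRILs above both. Its epiHybrids were above the linear mid-parent value of their family in 34 of 36 families. The edgeR contrast, against the mean of the epiRIL and msCol group levels on the log scale, was not called (log2 0.29 ± 0.13, edgeR adjusted p = 0.294).

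The AT4G16910 window printed above, chr4:9511401-9511600, was called in 2 comparisons. It had 44.0 and 29.3 in msCol, 28.0 to 125 in epiRILs (median 87.7) and 32.6 to 114 in epiHybrids (median 67.1). It was lower in epiHybrids than in epiRILs by −0.28 ± 0.07 (edgeR adjusted p = 0.00572), in 31 of 36 families, and higher in epiRILs than in msCol by 1.22 ± 0.33 (edgeR adjusted p = 0.0255). The former call was lost without a filter and without the family block (adjusted p = 0.108 and 0.0636), and the latter under 4 of 8 alternatives (adjusted p up to 0.413). A second window of the pseudogene, chr4:9510401-9510600, was higher in epiRILs than in msCol by 1.08 ± 0.30 (edgeR adjusted p = 0.034), a call lost under 3 of 8 alternatives. The fifth window called between epiHybrids and epiRILs, chr4:9511601-9511800, lay beside the printed one and was named after its values were seen (log2 −0.20, edgeR adjusted p = 0.0352).

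The pseudogene AT4G16870 (chr4:9483955-9488397, minus strand), which adjoins RPP4, split the epiRILs into separate sets. In 7 epiRILs (389, 419, 469, 426, 125, 79 and 467) its level was between 2.20 and 17.2, and in the other 29 it was between 343 and 1318. No epiRIL lay between 17.2 and 343. In msCol it was 485 and 458. Without family 12 the next lowest of the 29 had 519. The sets were seen in the data, and the difference between them is a description without a test.

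The low level covered the pseudogene from end to end. Over 22 windows, chr4:9484001-9488400, the highest value in each window among the 7 epiRILs lay below the lowest among the 29 in all 22, with medians of the 29 between 12.3 and 80.6. Of these windows 16 had only unique words, and the least unique had 94.9%. The low levels thus lay over sequence to which small RNAs could be assigned.

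**Figure D3:**
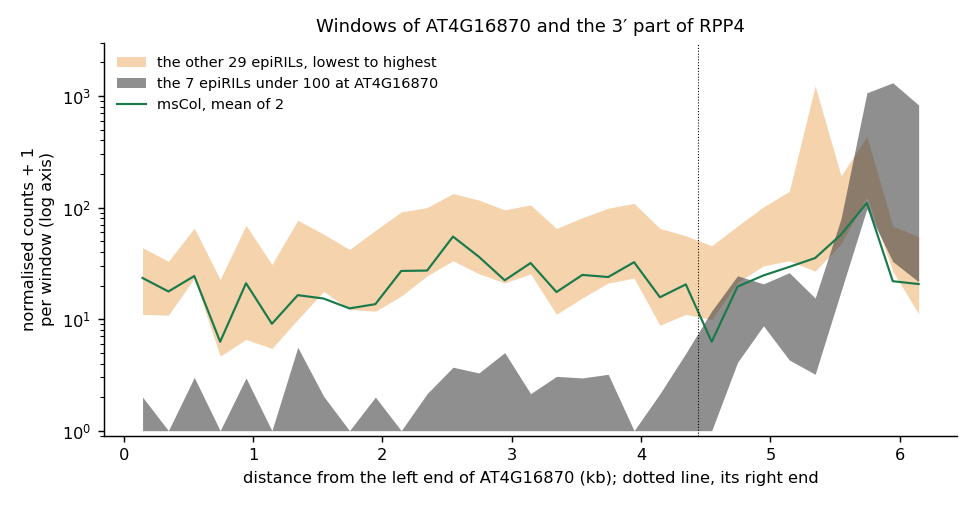
Normalised counts plus 1 per window (log axis) against the distance from the left end of AT4G16870, as bands from the lowest to the highest of 7 epiRILs and of the other 29, with the msCol mean as a line. The bands are separate in all 22 windows of the pseudogene, up to the dotted line at its right end. They are separate again at chr4:9488801-9489400 in RPP4.

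The epiHybrids of these 7 fathers were far above their fathers but were the lowest epiHybrids apart from that of family 12. Their levels were between 298 and 427, above the mid-parent values of 237 to 244 in all 7 families and below both msCol libraries in all 7. In the 29 other families, 25 epiHybrids were above the mid-parent value, and father and epiHybrid went together (r = 0.821, rho = 0.933, permutation p = 1e-05 each). Without families 12 and 568, left out here after the data were seen, the other 27 gave r = 0.922 and rho = 0.935 (permutation p = 1e-05 each), with fathers from 519 and epiHybrids from 480 upward. The exception was family 12, whose library labelled epiHybrid had 27.2 and whose library labelled epiRIL had 343, an order opposite to that of the 7 families and the same family whose labels went against the small RNAs around MS1.

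At the gene sums of the rest of the array these 7 epiRILs were not a separate set. Most of them still lay towards the low end at AT4G16900 and RLM3 and towards the high end at AT4G16920 and RPP5. Counted from the highest of 36 epiRILs, they held ranks 24 to 36 at AT4G16900 and ranks 1 to 11 at AT4G16920. At RPP5 they held ranks 1 to 17, with epiRIL 419 at 17 and the others at 7 or above. At RLM3, 6 of the 7 held ranks 28 to 35 and epiRIL 419 rank 12. At RPP4 their gene sums ran from rank 1 to rank 35 and at AT4G16910 from rank 2 to rank 34, without a common level. Some single windows of RPP4 near the pseudogene did separate them from the other epiRILs. Their highest value and the lowest of the others were 19.7 and 28.97 at chr4:9488801-9489000 and 25.05 and 32.3 at chr4:9489001-9489200. In the RPP4 edge window these were 14.4 and 25.8. The sets overlapped at chr4:9488401-9488800 and at chr4:9489401-9490200. Within the latter stretch most of the 7 were nevertheless the highest epiRILs in the printed RPP4 window. There epiRILs 79, 125, 467, 426 and 469 had 1065, 783, 571, 533 and 439, above the highest of the others at 431. EpiRIL 389 had 351, and epiRIL 419 was the lowest of all at 96.4. In the window after it the 7 ran from 31.8 to 1310 and the others from 25.8 to 67.2.

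**Figure D4:**
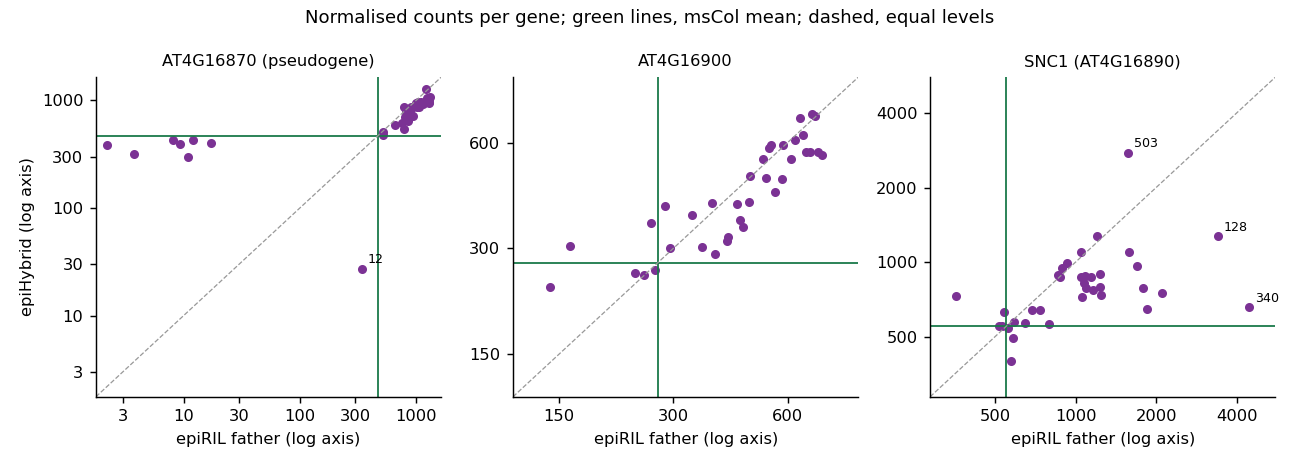
Level in the epiHybrid against level in its epiRIL father (normalised counts, log axes) for AT4G16870, AT4G16900 and SNC1, with 1 point per family, green lines at the msCol mean and a dashed line of equal levels. At AT4G16870 the 7 fathers at 2.20 to 17.2 have epiHybrids at 298 to 427, while at SNC1 families 340 and 128 fall far under the dashed line and family 503 lies above it.

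AT4G16880, annotated as a leucine-rich repeat family gene between RPP4 and SNC1, was low in most libraries and very high in few. It had 29.04 and 73.1 normalised counts in msCol, a median of 58.4 in epiRILs and of 50.1 in epiHybrids. It passed 200 in 7 epiRILs and in 3 epiHybrids, each of which had a father over 200. Family 12 was highest, with 5437 in the library labelled epiRIL and 7973 in the library labelled epiHybrid. In the next families the epiHybrid was far lower than the father, with 3034 and 410 in family 469 and 2073 and 108 in family 426. The abundant window chr4:9496201-9496400 of this gene had 3341 and 4918 in the libraries of family 12 labelled epiRIL and epiHybrid. Its medians were 12.3 in epiRILs and 7.98 in epiHybrids, with 7.49 and 14.6 in msCol. It was lower in epiHybrids by −0.93 ± 0.32 without being called (edgeR adjusted p = 0.0608). A window at the edge of the gene, chr4:9496001-9496200, was lower in epiHybrids by −1.28 ± 0.42 (edgeR adjusted p = 0.0484), but its medians were 0 and 0.986. The call was lost under 3 of 7 alternatives, and the difference was −0.08 without the family block (adjusted p = 0.979), −0.65 with limma voom (adjusted p = 0.236) and −1.78 without families 12 and 568 (edgeR adjusted p = 0.00481). Without all windows of AT4G16880, a setting chosen after the data were seen, the cluster sum of epiHybrids was still lower than that of epiRILs (log2 −0.19, permutation p = 2e-05).

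Of the other genes, AT4G16980, an arabinogalactan protein gene, held 3.25% of the counts and did not follow the rest. It had 258 and 410 in msCol, 168 to 658 in epiRILs (median 273) and 138 to 582 in epiHybrids (median 277). It overlaps AT4G16983 on the opposite strand over the same windows, and without strand their small RNAs cannot be told apart. It was called in no comparison, and father and epiHybrid did not go together (r = 0.0930, permutation p = 0.592).

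**Figure D5:**
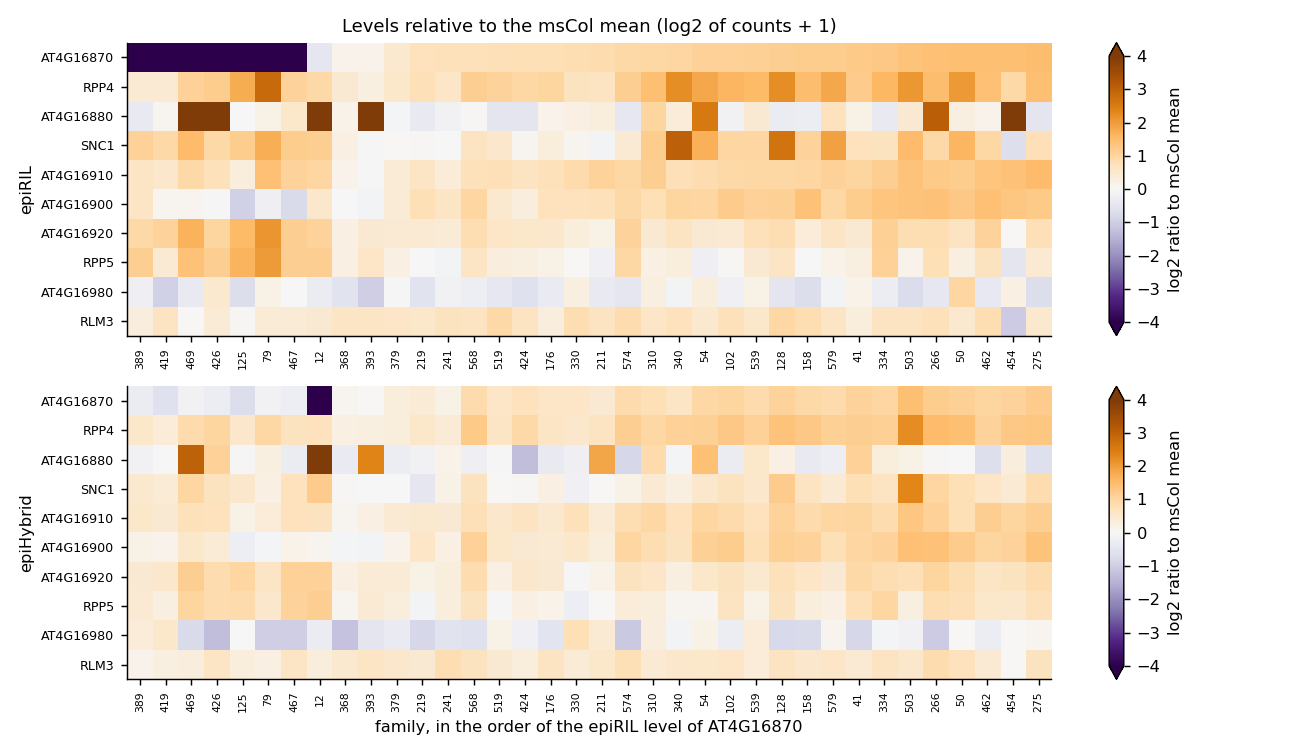
Log2 level relative to the msCol mean (counts plus 1) of 10 genes in each epiRIL (upper panel) and epiHybrid (lower panel), with families in the order of the epiRIL level of AT4G16870. The 7 families at the left are dark purple at AT4G16870 in epiRILs only, and family 12 is the family that is dark purple there in the lower panel.

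Levels varied more among epiRILs here than among windows of like abundance elsewhere. In windows with a mean of 100 to 1000 counts, the median coefficient of variation among epiRILs was 58.6% in the 18 cluster windows and 29.7% in 20328 windows of the genome. At means of 20 to 100 it was 54.3% in 67 windows and 45.2% over all, and at 5 to 20 it was 52.6% in 59 windows and 54.7% over all. The excess was thus seen in abundant windows and not in sparse ones. These values are descriptions, since windows of 1 gene share their sequence and libraries.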

How the data were processed

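Reads of each line were counted by the authors with ShortStack at its default settings on TAIR10, separately for every sequence context, over 200-bp regions in steps of 50 bp. The deposited values are raw whole-number counts of all read lengths, so lengths could not be separated here, and the treatment of reads with several origins and of molecular identifiers is not given in the sources used here. Intervals from these counts would cover counting error only. Libraries held 20995764 to 27084303 counts.

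The CHH counts of non-overlapping regions were used. Gene counts were sums over the windows whose midpoint lay in the gene. Counts were scaled by TMM, and windows and genes that averaged 2 or more counts were tested with edgeR 4.0.16 (quasi-likelihood, R 4.3.3) and Benjamini-Hochberg adjustment at 0.05 over the genome. The contrast of epiHybrids and epiRILs carried a family block, since each epiHybrid descends from the epiRIL of its number. The other contrasts used all 74 libraries without a block, and in them the mid-parent value was taken on the log scale. The cluster sum was tested by 100000 sign flips within families or by exact permutation of the msCol labels. DESeq2 1.42.0 and limma 3.58.1 were alternatives, with other scalings, filters, contexts and libraries left out. The fits were tested on simulated data. Annotation came from RefSeq (TAIR10.1), whose chromosome lengths fit the deposited regions. The 24-base words were searched on both strands of that genome. Other values were computed in Python 3.11.15 (SciPy 1.17.1, pandas 2.3.3, NumPy 2.4.6), with plots by matplotlib 3.10.9.

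The genes named were all annotated genes past the minimum, resistance genes first, and the windows named were the 10 most abundant and the 3 called with the largest change in each direction of each contrast. The cluster, the lists and the rules were chosen with earlier results of these data known.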

Additional observations from a re-analysis of the deposited data

How the results depend on the processing

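The direction of each cluster sum held under all alternatives run. The log2 difference between epiHybrids and epiRILs lay between −0.25 and −0.15 (11 alternatives), the excess over the mid-parent value between 8.53% and 19.3% (12 alternatives), and the log2 difference from msCol between 0.73 and 0.94 in epiRILs and between 0.53 and 0.79 in epiHybrids. The last missed the threshold with 1 msCol library left out (0.53 without msCol 12 and 0.67 without msCol 16, exact permutation p = 0.0811 each). The correlation of father and epiHybrid lay between 0.607 and 0.708.

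Counts of calls moved more. Between epiHybrids and epiRILs the windows called numbered 3 with library size only, 8 without a filter, 10 without families 12 and 568 and 8 with limma voom, against 5. The cluster windows tested in these settings numbered 191, 450, 190 and 191. Of all windows 8.66%, 2.37%, 9.13% and 8.93% were called, against 8.02%. The genes called numbered 3 with median-of-ratios size factors, 2 with a minimum mean of 5, 3 without families 12 and 568, 3 with limma voom, 3 with DESeq2 and 2 with windows shifted by 100 bp, against 1. Without the replicate block the genes called fell to 0 and the windows stayed at 5 in number, and the cluster sum had a permutation p of 0.00647. Between epiRILs and msCol the windows called fell from 3 to 0 without a filter and with limma voom, and to 0 and 1 without msCol 12 and 16. The genes fell from 2 to 1 without a filter and to 0 without either msCol library. With library size only, 1 window was called against the mid-parent value and 3 between epiHybrids and msCol, and DESeq2 called 1 gene in the latter, against 0 each. The shares of all windows or genes called there were 2.45%, 1.99% and 2.99%. Apart from the libraries left out, the cause was not tested.

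The limits are the 2 msCol libraries, of which library 16 had the lowest TMM factor, and repeated sequence. A scaling by median of ratios moved the median of all genes between epiRILs and msCol from −0.21 to −0.27, and library size alone to −0.08, so single-gene differences near these values depend on the scaling.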
